A study of Mus musculus with 9 samples.

Results

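The 10 genes described here are the AP-1 subunits and their immediate-early companions *Fos*, *Fosb*, *Fosl1*, *Fosl2*, *Jun*, *Junb*, *Jund*, *Atf3*, *Batf* and *Egr1*, chosen by name from the 49548 genes of the expression tables. All 10 were found. The libraries come from cultured synovial fibroblasts (SFs), the lining and sublining stromal cells of the joint, taken from ankles of 8-week-old CBA C57BL/6J mice and depleted of CD45+ cells at passage 1. There were 3 groups of 3 libraries: WT SFs, SFs of *hTNFtg* mice, which carry a human TNF transgene and develop arthritis, and *hTNFtg* SFs given infliximab, an antibody that neutralizes human TNF, at 1 μg/mL for 48 hours. The sample labels give WT and untreated *hTNFtg* cells as not treated, whereas the methods of the study describe a vehicle, so the 3 groups are named here WT, *hTNFtg* and infliximab. The replicates are stated to be biological; which animals they came from, and whether treated and untreated cultures shared animals, is not given in the sources used here, and p-values measure the spread between these libraries.

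AP-1 is a dimer of basic leucine zipper proteins that binds short palindromic DNA elements. Members of the JUN family can pair with each other or with FOS proteins, whereas FOS proteins need a JUN partner; ATF3 and BATF are related zipper proteins that pair with JUN proteins, and EGR1 is a zinc finger factor induced by the same stimuli. TNF activates JNK, p38 and ERK, which phosphorylate these proteins and switch on their genes within minutes, after which the messengers of *Fos*, *Fosb*, *Atf3* and *Egr1* decay quickly. In SFs, AP-1 is known for driving matrix metalloproteinases and inflammatory mediators. The libraries measure messenger level at one steady time and not protein, phosphorylation or DNA binding.

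Values are normalized counts, that is, reads per gene after the authors scaled each library, from 3′ end sequencing in which a messenger is primed once at its tail, so that levels of different genes are set side by side without division by length. The *hTNFtg* replicate 1 library stood apart in depth: it held about 613343 reads, and the other 8 held 3829153 to 9015664. One read in that library is worth 6.23 normalized counts, and a gene at 0 there could be as high as 18.7 (3 reads), compared with 1.6 to 3.31 in the others. The summed level of 12 fibroblast markers was 43586 to 53914 in WT, 38942 to 47097 in *hTNFtg* and 36789 to 43027 in infliximab libraries. Macrophage markers (12 genes) summed to 198 to 674, 3167 to 6562 and 2106 to 4377, with none of them at 0 in every library, and *Ptprc*, which encodes CD45, was at 0 in WT replicates 1 and 3 and at 9 to 31 in *hTNFtg* cells. Hepatocyte markers (8 genes) summed to 980 in infliximab replicate 3 and to 7 to 86 in the other libraries. In bulk libraries, a change in the number of cells of a type and a change in RNA per cell cannot be told apart.

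The genes lie apart on several chromosomes of the mm10 build. *Fos* (ENSMUSG00000021250) spans chr12:85473890-85477273 on the plus strand with 4 exons in GENCODE M21, and *Fosl2* (ENSMUSG00000029135) spans chr5:32135801-32157842 on the plus strand, also with 4 exons. *Jun* (ENSMUSG00000052684), at chr4:95049034-95052222 on the minus strand, and *Junb* (ENSMUSG00000052837), at chr8:84974484-84978718 on the minus strand, are single-exon genes, as is *Jund*.

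Within the FOS family, *Fosl2* (FRA-2) was the most abundant messenger in every library and *Fos* itself was scarce. *Fosl2* had 3259, 2278 and 1909 normalized counts in WT replicates 1 to 3, 2136, 1897 and 1244 in *hTNFtg*, and 2563, 1756 and 1357 in infliximab cells. It made up 81.3% to 90.8% of the summed FOS family count in WT, 72.4% to 87.5% in *hTNFtg* and 81.4% to 89.2% in infliximab libraries, so the ranges overlap. *Fosl1* (FRA-1), the other subunit without a strong activation domain, was second, with 278, 313 and 432 normalized counts in WT, 187, 311 and 440 in *hTNFtg*, and 268, 261 and 282 in infliximab cells. The infliximab libraries lie closest together for *Fosl1*, and all lie inside the range of the *hTNFtg* libraries. *Fos* never exceeded 4.83% of the family and *Fosb* never exceeded 0.808%.

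Within the JUN family, *Junb* was the main messenger. It had 3138, 2265 and 1802 normalized counts in WT, 1476, 2456 and 2778 in *hTNFtg*, and 3326, 2736 and 2687 in infliximab cells. Its share of the summed JUN family count was 75.2% to 77.1% in WT, 69.3% to 74.5% in *hTNFtg* and 68.3% to 75.8% in infliximab libraries. The *hTNFtg* shares lie below all WT shares, a description of 3 libraries each with no test. *Junb* overlaps *Prdx2* on the opposite strand over 351 bases of the gene models, and *Prdx2* ran at 844 to 1037 normalized counts; whether the counting used strand is not given in the sources used here, so a part of either count could belong to the other gene.

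*Jun*, the subunit with the strongest activation domain, and *Jund*, usually the steadiest of the family, were present at lower levels. *Jund* had 160, 171 and 294 normalized counts in WT, 187, 212 and 443 in *hTNFtg*, and 221, 159 and 240 in infliximab cells, with overlapping groups. The share of *Jun* in its family was 12.6% to 18.9% in WT, 17.7% to 21.9% in *hTNFtg* and 19.2% to 25.6% in infliximab libraries. Every infliximab share of *Jun* therefore lies above every WT share, again without a test. The ratio of the summed FOS family count to the summed JUN family count was 0.882, 0.875 and 0.979 in WT, 1.15, 0.677 and 0.439 in *hTNFtg*, and 0.655, 0.551 and 0.424 in infliximab cells. In this ratio WT and infliximab libraries did not overlap, whereas *hTNFtg* libraries spanned both, again without a test. The highest *hTNFtg* ratio is that of the shallow replicate 1. Of the other ratios computed, *Jun* over *Junb* (0.167 to 0.245 in WT, 0.253 to 0.374 in infliximab libraries) did not overlap either. The ratios of *Fosl1* over *Fosl2* and *Jund* over *Junb* overlapped between WT and infliximab libraries. The share of such separations among ratios of other genes was not computed.

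**Figure D1:**
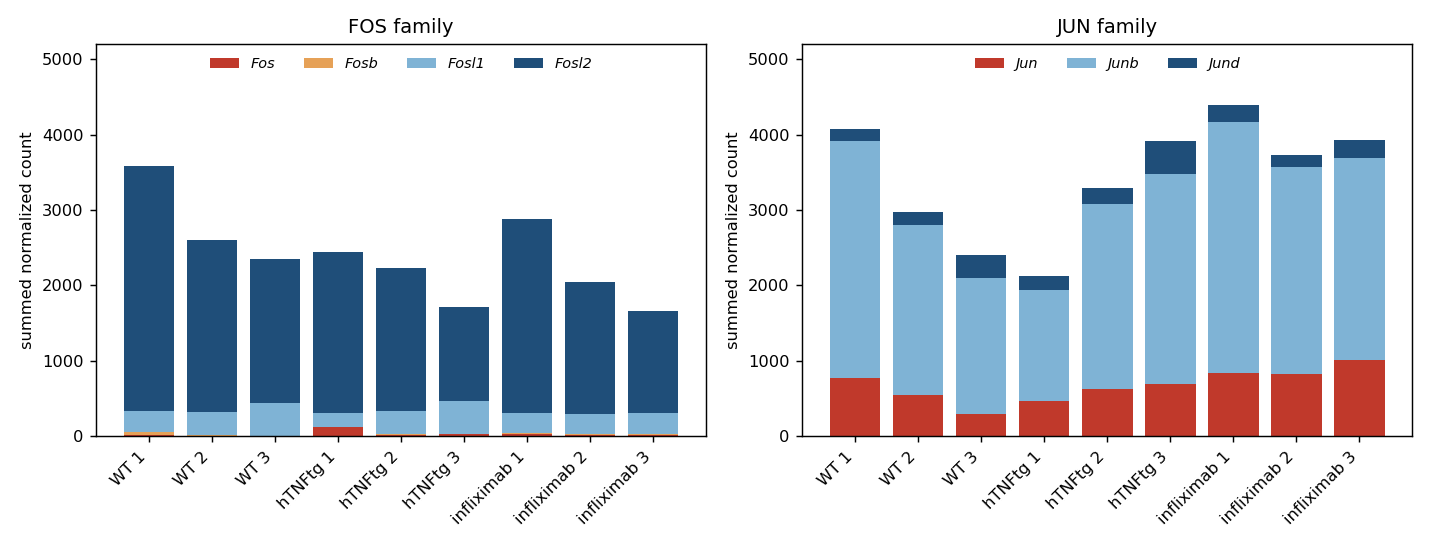
Stacked bars give the normalized counts of the FOS family (left) and the JUN family (right) in each of the 9 libraries; bar height is the summed normalized count. *Fosl2* fills 72.4% to 90.8% of the FOS bars and *Junb* 68.3% to 77.1% of the JUN bars.

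The question of the first comparison is which of these factors differ at the messenger level between arthritogenic and WT SFs. *Fos* was the 1 member of 10 called higher in *hTNFtg* SFs, by the rule of the study (unadjusted P under 0.05 and an absolute log2 fold change of at least 1), against 3.35% of all 28522 genes tested called higher. No member was called lower, against 3.04% of all genes. In both directions 0 members had every *hTNFtg* library above or below every WT library, against 5.63% and 5.8% of all genes. The median log2 difference of the members was 0.04, beside -0.0034 over all genes tested.

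*Fos* encodes the subunit whose induction defines the immediate-early response. It had 22, 9 and 1 normalized counts in WT and 118, 15 and 27 in *hTNFtg* cells. The high value belongs to the shallow replicate 1, where 118 normalized counts are about 19 reads (95% Poisson interval 71.2 to 185 normalized counts, counting error only), and the lowest *hTNFtg* value lies below the highest WT value. The difference was 2.29 on the log2(normalized count + 1) scale (SE 0.97, 95% interval 0.15 to 4.42), with an unadjusted limma p of 0.0379 and an adjusted p of 0.595. By limma no member had an adjusted p under 0.05, against 0.48% of all genes. By edgeR on approximate reads *Fos* was also the 1 member called, against 5.2% of all genes called higher; it differed by 2.0 on the log2 scale (adjusted p = 0.0297), and 3.24% of all genes had an adjusted p under 0.05. The call was lost on leaving out *hTNFtg* replicate 1 (log2 difference 1.46), WT replicate 3 (1.31), WT replicate 2 (2.47) or *hTNFtg* replicate 3 (2.5), and kept on leaving out WT replicate 1 (3.07) or *hTNFtg* replicate 2 (2.90). It was also lost with a pseudocount of 5 (1.71), with array weights (1.35) and, at the same log2 difference, with a filter at a mean of 10. The macrophage marker sum was also highest, at 6562, in *hTNFtg* replicate 1; its part in the *Fos* value was not tested.

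The remaining 9 members did not pass the rule between *hTNFtg* and WT, with unadjusted limma p-values of 0.215 to 0.955. For the abundant subunits the intervals limit the size of any difference: the log2 difference was -0.50 (-1.33 to 0.33) for *Fosl2*, -0.12 (-0.98 to 0.75) for *Junb*, 0.23 (-0.58 to 1.04) for *Jun*, and 0.02 (-0.77 to 0.82) for *Egr1*. *Fosl1*, at -0.18 (-0.96 to 0.60), and *Jund*, at 0.37 (-0.48 to 1.22), had intervals of like width. *Jun* had 770, 541 and 301 normalized counts in WT and 467, 629 and 694 in *hTNFtg* cells, so the WT libraries alone spanned the *hTNFtg* range. *Egr1* had 371, 213 and 260 in WT and 174, 317 and 390 in *hTNFtg* cells.

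The scarce members were measured with much less precision. *Fosb*, a FOS protein with a short-lived messenger, had 29, 4 and 5 normalized counts in WT and 0, 9 and 7 in *hTNFtg* cells, a log2 difference of -1.16 (-3.58 to 1.25). The 0 is that of the shallow library, and its 95% Poisson interval reaches 23 normalized counts, a two-sided limit that lies above the floor of 3 reads. *Atf3*, a stress-induced factor that as a homodimer represses transcription, had 4, 14 and 1 in WT and 6, 3 and 5 in *hTNFtg* cells, where the 6 is a single read. *Batf*, best known from lymphocytes and dendritic cells, had 0, 2 and 2 in WT and 0, 6 and 3 in *hTNFtg* cells. All WT libraries lie at or under 3 reads for *Batf*, so its fitted differences, drawn among the others, depend on the added count of 1 and are not measured folds.

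**Figure D2:**
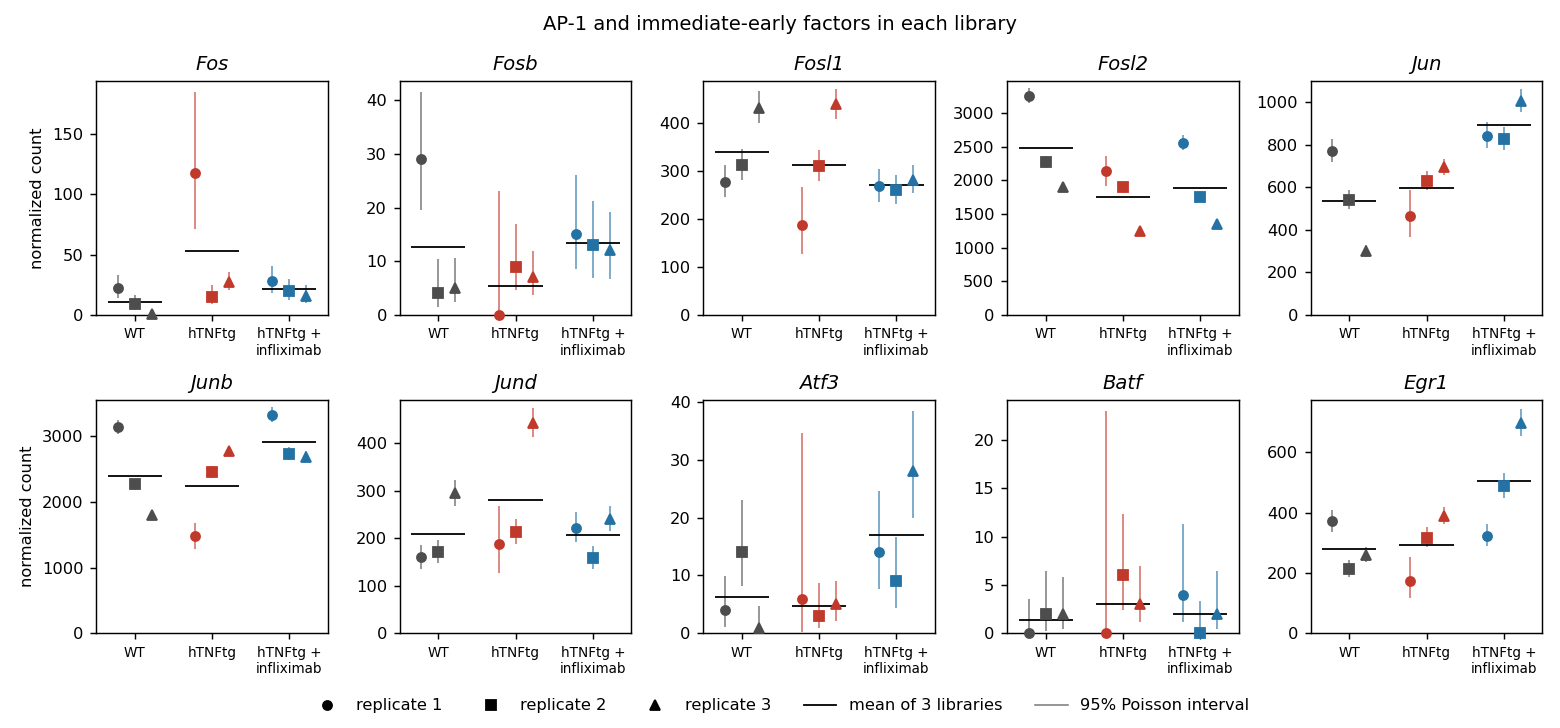
Each panel is 1 gene; points are the normalized counts of single libraries (circle, square and triangle for replicates 1, 2 and 3), thin bars the 95% Poisson intervals of the reads, and black lines the means of 3 libraries. The axes start at 0 and differ in range; *Fos* is highest at 118 in *hTNFtg* replicate 1, and *Jun* in infliximab cells (828 to 1006) lies above all other libraries.

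The next comparison asks what 48 hours of TNF neutralization did to these messengers in *hTNFtg* SFs; it shares its *hTNFtg* libraries with the first. By limma, 0 of 10 members passed the rule and 0 had an unadjusted p under 0.05, against 1.49% of 28540 genes called higher and 0.936% called lower; edgeR on approximate reads called 1 member, *Atf3*, against 1.81% of all genes called higher. Over the whole table, 0 genes (0%) had an adjusted p under 0.05, and the adjusted p of the members was at least 0.803; by edgeR 0.578% of genes and 0 members had one under 0.05. As listed, every infliximab value of *Fosb*, *Jun* and *Atf3*, 3 of 10 members, was above every untreated one, compared with 3.99% of all genes. For *Fosb* and *Atf3* the depth of *hTNFtg* replicate 1 cannot show this order, since the intervals of its 0 and 1 reads (up to 23 and 34.7 normalized counts) cover all treated values, so the count rests on *Jun*. No member had every infliximab library below, compared with 3.44% of all genes. The median log2 difference of the members was 0.26, beside 0 over all genes.

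*Jun* had 843, 828 and 1006 normalized counts in infliximab cells, compared with 467, 629 and 694 untreated. The group means were 892 ± 98.7 (SD, n = 3) and 597 ± 117 (SD, n = 3). The difference was 0.59 on the log2 scale (-0.03 to 1.22), with a limma p of 0.0603. The 95% Poisson interval of the shallow library, 367 to 586 and counting error only, ends below the lowest infliximab value. Without infliximab replicate 3, the library with hepatocyte messengers, the difference was 0.50, and without *hTNFtg* replicate 1 it was 0.43. *Junos*, on the opposite strand of *Jun*, ran at only 7 to 21 normalized counts.

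*Egr1* had 324, 490 and 698 normalized counts in infliximab cells and 174, 317 and 390 untreated. The highest untreated library lies above the lowest treated one. Its log2 difference was 0.79 (-0.0033 to 1.57), with a limma p of 0.0508. The largest value was again that of infliximab replicate 3, without which the difference was 0.52, and without the shallow *hTNFtg* replicate 1 it was 0.45; without *hTNFtg* replicate 3 it was 1.03 and without infliximab replicate 1 it was 1.07, and both of these pass the rule.

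*Atf3* had 14, 9 and 28 normalized counts in infliximab cells, compared with 6, 3 and 5 untreated. These are few molecules, about 13, 10 and 38 reads against 1, 4 and 9, and the interval of the shallow library (0.158 to 34.7 normalized counts) covers the entire treated range. The log2 difference was 1.57 (-0.14 to 3.27), with a limma p of 0.0686. It passed the rule without *hTNFtg* replicate 1 (1.74), with array weights (1.81), with the replicate block at the same log2 difference, and on approximate reads by edgeR (1.98), and it did not without infliximab replicate 3 (1.15). *Fosb* had 15, 13 and 12 against 0, 9 and 7, with a log2 difference of 1.73 (-0.38 to 3.83) and a limma p of 0.0996. Without the shallow library, in which *Fosb* was at 0, that difference was 0.68.

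*Fos* did not follow the direction of *Jun*, *Atf3* and *Egr1*. It had 28, 20 and 16 normalized counts after infliximab and 118, 15 and 27 before, a log2 difference of -0.79 (-2.22 to 0.65). Without *hTNFtg* replicate 1 the difference was 0.04, so its sign rests on that library. The abundant *Fosl2* (0.09, -0.70 to 0.89) and *Junb* (0.43, -0.38 to 1.23) had intervals across 0, as did *Fosl1* (-0.13, -0.83 to 0.58) and *Jund* (-0.35, -1.11 to 0.41). *Batf* had 4, 0 and 2 normalized counts after infliximab.

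**Figure D3:**
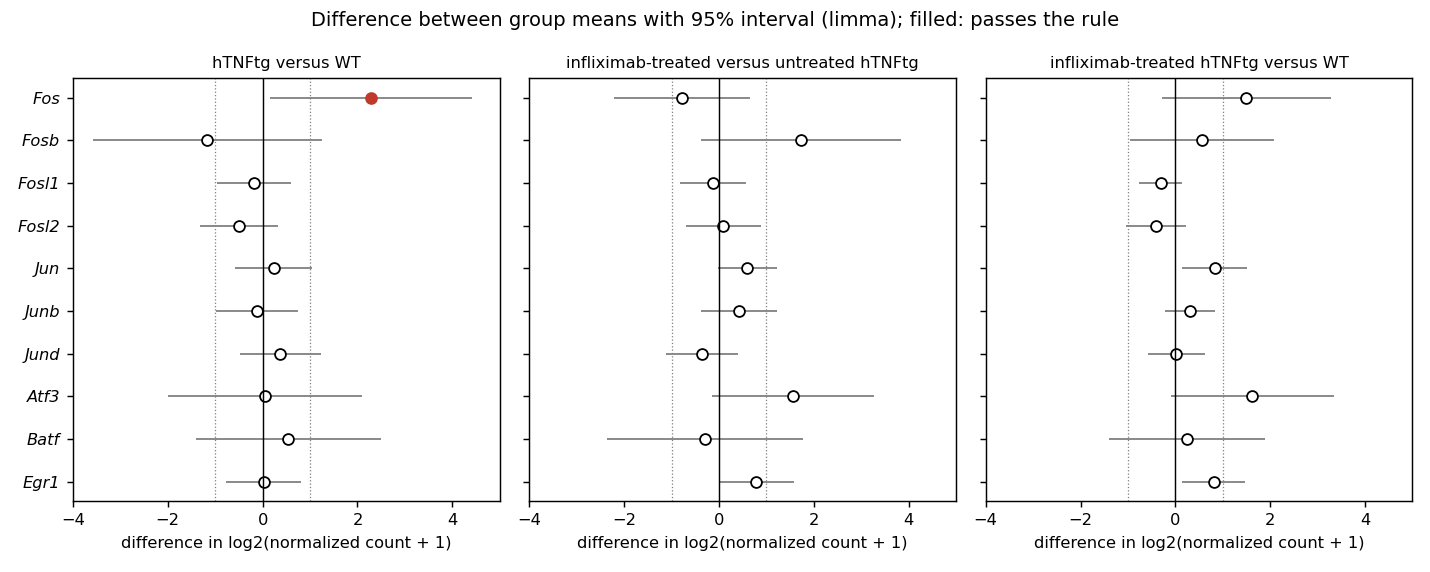
Points give the difference between group means on the log2(normalized count + 1) scale for each member, with 95% limma intervals, in the 3 comparisons; dotted lines mark differences of 1 in either direction, and the filled point passes the rule. *Fos* in *hTNFtg* versus WT (2.29) is the single filled point, and the scarce *Fos*, *Fosb*, *Atf3* and *Batf* have the widest intervals.

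Infliximab-treated *hTNFtg* SFs were also set against WT SFs, to ask which levels differed from WT after neutralization. By limma, 0 of 10 members passed the rule, against 3.86% of 28243 genes called higher and 2.95% called lower. An unadjusted limma p under 0.05 was found for 2 members, and edgeR called *Atf3* (1.48), against 4.4% of all genes called higher. The largest limma difference of a member was also that of *Atf3* (1.62), which did not pass. On leaving out 1 library it was 0.91 to 2.37, and that of *Fos* was 0.52 to 2.29. *Jun* had every infliximab library (828 to 1006) above every WT library (301 to 770), 1 member of 10, compared with 7.14% of all genes; none lay entirely below, compared with 7.07%. Its log2 difference was 0.83 (0.15 to 1.51), with a limma p of 0.0219 and an adjusted p of 0.297. *Egr1* differed by 0.81 (0.14 to 1.48), with a limma p of 0.0228 and an adjusted p of 0.303, and its groups overlapped. With all libraries, both differences are under the fold part of the rule. On leaving out 1 library, the log2 difference was 0.46 to 1.14 for *Jun* and 0.54 to 1.09 for *Egr1*. By limma no member had an adjusted p under 0.05, against 0.74% of all genes. By edgeR *Jun* (0.76, adjusted p = 0.0317) and *Egr1* (0.88, adjusted p = 0.00932) had one, against 4.68% of all genes.

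One WT library set much of that comparison. WT replicate 1 held the highest WT value of *Fos*, *Fosb*, *Fosl2*, *Jun*, *Junb* and *Egr1*. Without it, *Fos* (2.29), *Fosb* (1.38), *Jun* (1.14) and *Egr1* (1.03) all passed the rule, 4 of 10 members, against 4.93% of all genes called higher in that fit. The largest *Egr1* difference, 1.09, came on leaving out infliximab replicate 1 and also meets the fold part of the rule. The size of the *Egr1* difference therefore does not depend on WT replicate 1 alone. Without WT replicate 2, *Atf3* passed it (2.37), against 3.46% of all genes. The summed count of 11 heat shock genes, which move with handling stress, was also highest among WT libraries in replicate 1, at 8092 against 5183 and 4910, compared with 6229 to 8918 in *hTNFtg* and 5758 to 8034 in infliximab libraries; its part in these values was not tested. *Fosl1* (-0.31, -0.76 to 0.14) and *Fosl2* (-0.40, -1.04 to 0.23) had lower means in infliximab than in WT cells without passing it. *Junb* (0.31, -0.22 to 0.85) and *Jund* (0.02, -0.58 to 0.63) did not pass it either.

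Promoter sequences are shown for 4 members picked after their values were seen. They include *Fos*, which passed the rule, and *Jun*, whose treated and untreated libraries did not overlap. The others are *Fosb* and *Atf3*, whose listed values did not overlap but whose order the shallow library cannot show. Each sequence is the 250 bases before the RefSeq start in the GRCm38.p6 build (mm10), 5′ to 3′ on the gene's strand. Entries of the RefSeq promoter table used here matched 8 of the 10 members. The promoters of *Fosl1* and *Egr1* were not analysed here, although *Egr1* passed the rule in some fits that left out a library. Capitals mark matches to the motifs searched on both strands: TGANTCA (the AP-1 element), TGACNTCA (which includes the CRE and the variant known from *Jun*), GCGNGGGCG (an EGR element), the CArG box bound by SRF and the NF-kB consensus. The *Fos* window is chr12:85473640-85473889 on the plus strand, *Fosb* chr7:19310046-19310295 on the minus strand, *Jun* chr4:95052223-95052472 on the minus strand and *Atf3* chr1:191183334-191183583 on the minus strand, which lies inside the longer *Atf3* gene model of the tables.
Fos: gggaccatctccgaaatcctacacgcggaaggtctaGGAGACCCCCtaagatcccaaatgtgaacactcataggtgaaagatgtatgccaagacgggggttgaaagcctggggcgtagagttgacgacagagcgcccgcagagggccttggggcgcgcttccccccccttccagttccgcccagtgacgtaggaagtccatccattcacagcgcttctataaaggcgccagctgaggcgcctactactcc
Fosb: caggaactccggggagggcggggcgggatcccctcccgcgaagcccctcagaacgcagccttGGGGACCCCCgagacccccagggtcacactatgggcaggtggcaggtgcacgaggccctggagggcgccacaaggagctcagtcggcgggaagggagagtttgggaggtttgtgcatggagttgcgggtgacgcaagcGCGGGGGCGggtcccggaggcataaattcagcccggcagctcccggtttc
Jun: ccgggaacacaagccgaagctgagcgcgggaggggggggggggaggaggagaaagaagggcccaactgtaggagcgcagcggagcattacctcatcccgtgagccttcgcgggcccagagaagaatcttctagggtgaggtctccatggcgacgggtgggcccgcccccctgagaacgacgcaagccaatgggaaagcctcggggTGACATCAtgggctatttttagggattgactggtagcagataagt
Atf3: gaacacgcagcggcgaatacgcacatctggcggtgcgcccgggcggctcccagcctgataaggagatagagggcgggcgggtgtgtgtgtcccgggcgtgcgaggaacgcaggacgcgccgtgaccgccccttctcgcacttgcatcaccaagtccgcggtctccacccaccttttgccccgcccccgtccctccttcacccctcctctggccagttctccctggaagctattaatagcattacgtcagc

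In the *Jun* window the capitals are TGACATCA, from 45 to 38 bases before the start, a match to TGACNTCA, which 1 of 8 member promoters and 7.49% of 32851 promoters hold. The NF-kB consensus matched in *Fos* (214 to 205 bases before the start) and *Fosb* (188 to 179), and also in *Fosl2*, so in 3 of 8 member promoters and 7.25% of all. GCGNGGGCG matched in *Fosb*, 50 to 42 bases before the start, and in *Fosl2*, so in 2 of 8 and 4.7% of all. TGANTCA, held by 6.75% of all promoters, and the CArG box, held by 1.47%, matched in 0 of the 8 windows, and none of the 5 motifs matched in *Atf3*, *Junb*, *Jund* or *Batf*. The *Jund* window, chr8:70697489-70697738 on the plus strand, does not adjoin the *Jund* gene model used here, which starts at 70698949. The bases just before that start were not searched. A match is a string of letters and not a measured site, and the windows leave out elements farther upstream.

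The genes around these factors give the setting, and their counts under each alternative are read against the share of all genes called in the same fit. On leaving out libraries, limma called 2.47% to 5.35% of all genes higher and 2.44% to 4.52% lower in *hTNFtg* versus WT, 1.07% to 2.59% and 0.431% to 3.29% with infliximab, and 3.46% to 4.93% and 2.66% to 4.18% in infliximab versus WT. With array weights the shares higher and lower were 7.78% and 4.64%, 2.64% and 4.87%, and 4.67% and 3.61% in that order, and with edgeR they were 5.2% and 3.25%, 1.81% and 2.49%, and 4.4% and 2.86%. Of 20 known AP-1 target genes, 12 were called higher in *hTNFtg* SFs than in WT SFs and 0 lower, against 3.35% and 3.04% of all genes, and 4 of them, *Mmp3*, *Ccl2*, *Ptgs2* and *Cd44*, had an adjusted limma p under 0.05. Their median log2 difference was 1.14, beside -0.0034 over all genes, and 10 to 11 were called on leaving out each library, with 0 to 2 of the list at an adjusted p under 0.05. The 4 at that threshold, against 0.48% of all genes, became 0 with the replicate block (0% of all genes), 6 with all 9 libraries in one fit (1.34%), 7 with edgeR (3.24%) and 9 with array weights (3.52%). The list was compiled with results of these data known, and several of its genes are NF-kB targets or macrophage genes as well, so it is no independent measure of AP-1 activity. The summed normalized count of the 20 genes was 7518 to 10798 in WT, 23958 to 28027 in *hTNFtg* and 15930 to 17986 in infliximab libraries.

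*Mmp3* encodes stromelysin-1, a matrix-degrading enzyme. It had 90, 140 and 141 normalized counts in WT, 3170, 4055 and 4079 in *hTNFtg*, and 865, 642 and 1004 in infliximab cells. It was 4.94 higher in *hTNFtg* than in WT on the log2 scale (limma, adjusted p = 3.82e-05). It fell by 2.18 with infliximab (limma, adjusted p = 0.165, with an unadjusted p of 1.74e-05). The 3 groups do not overlap, a pattern that none of the 10 factors had. *Ccl2*, the monocyte chemoattractant, was 3.45 higher in *hTNFtg* than in WT (adjusted p = 0.00598), with 545, 329 and 207 normalized counts in WT, 4914, 3855 and 2579 in *hTNFtg*, and 1639, 1958 and 1954 in infliximab cells.

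*Lif*, a cytokine of the IL-6 family, was at 1 to 2 normalized counts in WT, all at or under 3 reads, and at 44, 27 and 14 in *hTNFtg* cells, at least 11.2-fold higher than a floor of 2.52, the mean over the WT libraries of what 3 reads are worth. *Mmp9*, a gelatinase also made by macrophages, passed the rule (4.35, adjusted p = 0.373) but ranged from 143 to 4533 among *hTNFtg* libraries. With infliximab, 2 of the 20 targets were called lower, *Mmp3* and *Mmp10*, and 0 higher, against 0.936% and 1.49% of all genes. *Mmp10* was at 0 in every infliximab library and at a mean of 5.33 untreated. The mean worth of 3 reads is 2.74 in infliximab and 7.62 in untreated *hTNFtg* libraries, so the untreated mean lies under its own floor. The fitted difference of *Mmp10* therefore depends on the added count of 1 and is not a measured fold. The filter at a mean of 10 gave 1 called lower, against 0.889% of all genes. Without infliximab replicate 3 or *hTNFtg* replicate 3, 4 were called lower, and with array weights 5, against 4.87% of all genes. *Mmp10*, and among the earlier names *Ptgs2* and *Cd44*, were singled out after their values were seen. Compared with WT, 8 of 20 were called higher after infliximab, against 3.86% of all genes, and 7 to 9 on leaving out each library. Among those with a mean of at least 10, *Mmp9* (3.36), *Mmp3* (2.75), *Ccl2* (2.46) and *Ptgs2* (2.34) had the largest log2 differences. *Mmp9* had 5, 554 and 15 normalized counts in WT and 202, 226 and 1263 in infliximab cells, so these groups overlap.

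Of 24 other immediate-early genes, 4 were called higher in *hTNFtg* than in WT SFs and 0 lower, against 3.35% and 3.04% of all genes, with a median log2 difference of 0.34. Leaving out WT replicate 2 gave 1 called and leaving out any other library gave 3, whereas edgeR called 8 higher and 1 lower, against 5.2% and 3.25% of all genes. The 4 were *Dusp1* (2.05), a phosphatase that switches off MAP kinases, *Klf4* (1.74), a zinc finger factor, *Ier3* (1.19), a survival gene, and *Rhob* (1.06), a small GTPase. *Dusp1* had 73, 37 and 27 normalized counts in WT, 181, 213 and 144 in *hTNFtg* and 183, 115 and 240 in infliximab cells, with an adjusted limma p of 0.056 in the first comparison. With infliximab, *Gadd45b*, a stress sensor upstream of p38, was the 1 gene of 24 called (1.35, adjusted p = 0.803), against 1.49% of all genes called higher, with 44, 111 and 90 normalized counts untreated and 145, 221 and 234 treated; without *hTNFtg* replicate 1 the list had 0 called higher and 1 lower, and without *hTNFtg* replicate 3 it had 3 higher and 0 lower. Without infliximab replicate 1 it had 2 higher, and without infliximab replicate 3 or *hTNFtg* replicate 2 it had 1 higher and 1 lower. Compared with WT, infliximab-treated cells had 4 of 23 tested genes called higher, against 3.86% of all genes, namely *Klf4* (2.17), *Dusp1* (2.01), *Ctgf* (1.83), a matricellular gene, and *Ier3* (1.30). The count was 8 without infliximab replicate 2, 6 without WT replicate 1 and with edgeR, and 3 to 4 without any of the other libraries.

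Among 10 tested genes for other AP-1 and related zipper proteins, *Maff*, a small MAF protein without an activation domain, was the 1 called higher in *hTNFtg* than in WT SFs (1.99, adjusted p = 0.34), against 3.35% of all genes. It had 8, 7 and 3 normalized counts in WT, 25, 28 and 23 in *hTNFtg* and 15, 12 and 24 in infliximab cells, and was also called higher in infliximab cells than in WT (1.39), against 3.86% of all genes. In *hTNFtg* versus WT the list had 1 higher and 2 lower without *hTNFtg* replicate 1, 2 higher without *hTNFtg* replicate 3, and 1 higher and 1 lower with array weights. In infliximab versus WT it had 2 higher without WT replicate 1, and 0 without WT replicate 3, infliximab replicate 1 or infliximab replicate 3, with a pseudocount of 5 and with the replicate block. With infliximab, 0 of the 10 were called and 1 had an unadjusted limma p under 0.05, *Jdp2*, a zipper protein that represses AP-1, named here after its values were seen. Its mean was 237 normalized counts untreated and 449 treated, with every treated library above every untreated one, a log2 difference of 0.92 (0.32 to 1.53, limma adjusted p = 0.803). The list had 1 called higher without *hTNFtg* replicate 3 or infliximab replicate 2, and 1 with array weights, where 1 gene had an adjusted p under 0.05 against 0.228% of all genes. In the main limma fit and by edgeR, none of 22 kinases and SRF factors upstream of AP-1 was called in any comparison. With limma calling 0.936% to 3.86% of all genes in a direction and comparison, a count of 0 in a list of this size, or among the 11 heat shock genes, does not set the list apart. At an unadjusted limma p under 0.05 the counts were 0 in *hTNFtg* versus WT, 1 with infliximab and 0 in infliximab versus WT. Without WT replicate 1, limma called 1 higher in *hTNFtg* versus WT, and in infliximab versus WT it called 1 higher and 1 lower, with 6 at an unadjusted p under 0.05. Without *hTNFtg* replicate 3, 1 was called lower in *hTNFtg* versus WT, and with array weights 1 was called higher in each comparison with WT. Of the 11 heat shock genes, the main limma fit called 0 in any comparison. In that fit 1 had an unadjusted p under 0.05 in *hTNFtg* versus WT and 0 in the others, and edgeR called 1 with infliximab. Without WT replicate 1, limma called 2 higher in *hTNFtg* versus WT and 3 higher in infliximab versus WT, and with array weights it called 1 and 2. In *hTNFtg* versus WT it called 1 higher without *hTNFtg* replicate 1 or 3 and with all 9 libraries in one fit, and with infliximab 1 higher without *hTNFtg* replicate 1.

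Of 12 macrophage markers, 8 were called higher in *hTNFtg* than in WT SFs (median log2 difference 2.97), 2 were called lower with infliximab, and 9 were called higher in infliximab cells than in WT, against 3.35%, 0.936% and 3.86% of all genes. The 2 lowered with infliximab became 0 without *hTNFtg* replicate 1, 0 with array weights (median log2 difference 0.11, from -0.19), 1 without *hTNFtg* replicate 3, infliximab replicate 1 or infliximab replicate 2, and 3 without infliximab replicate 3. Without WT replicate 1, infliximab versus WT had 7 higher and 1 lower. The part of these cells in the levels of *Fos*, the other AP-1 genes and their targets was not tested.

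**Figure D4:**
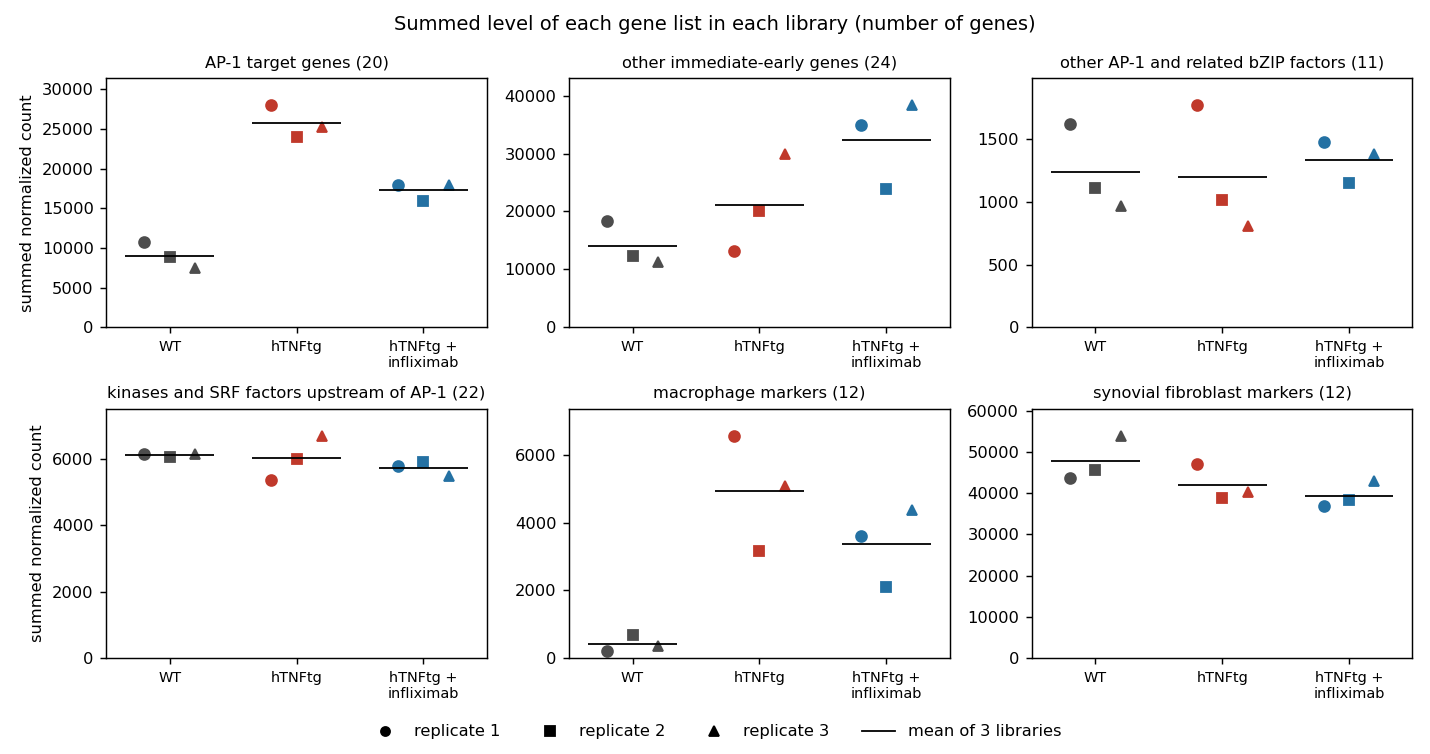
Points are the summed normalized counts of each gene list in each library (circle, square and triangle for replicates 1, 2 and 3), black lines the means of 3 libraries, and the number of genes stands in brackets. The AP-1 target sums separate the 3 groups (WT at most 10798, infliximab 15930 to 17986, *hTNFtg* at least 23958), whereas the upstream kinase sums span 5375 to 6695 in *hTNFtg* libraries, a range that holds all WT and infliximab sums; *Ctgf*, at 4389 to 26136 normalized counts, is a large part of the immediate-early sums.

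The genes whose levels ran most like *Fos* over the 9 libraries, among 8631 genes with a mean of at least 50 normalized counts, were *Cebpd*, *Srebf1*, *Tmem184b*, *Sema4b* and *Zcchc8*. Their Pearson correlations with *Fos*, on log2(normalized count + 1), were 0.988, 0.953, 0.950, 0.944 and 0.938. *Cebpd*, a zipper factor of the C/EBP family, had 380, 255 and 176 normalized counts in WT, 610, 316 and 373 in *hTNFtg*, and 418, 335 and 342 in infliximab cells. For all 5, as for *Fos*, the highest library was *hTNFtg* replicate 1 and the lowest was WT replicate 3. The points share their libraries and depth, so these values are a description.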

How the data were processed

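3′ messenger RNA of 9 SF cultures was sequenced on an Ion Proton (QuantSeq). Per the methods of the study and the submitters' processing notes, the authors mapped reads with TopHat2 and then Bowtie2 on mm10, counted them per gene with GenomicRanges, and normalized and tested them with DESeq through metaseqR; tool versions are not given in the sources used here. The deposited values are normalized counts rounded to whole numbers, handled as a score. For *hTNFtg* replicate 1 the deposited values are a signal from which whole reads were recovered: 98.7% of its nonzero values are returned exactly by a whole number of reads times 6.23. In the other libraries 1 read is worth 0.534 to 1.1 normalized counts, so reads are approximate. The 3 *hTNFtg* columns are identical in both tables, so the 3 groups share a scale. The authors' fold changes, p-values and FDR of their own comparisons were not used, nor were 24 further columns of per-sample values on other scales.

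The 10 members and all gene lists were chosen with earlier results of these data known. Within each pair of groups, every gene with any nonzero library was tested with limma (3.58.1, R 4.3.3; lmFit and eBayes with trend) on log2(normalized count + 1), with Benjamini-Hochberg adjustment over all genes; fold changes are on that scale and understate changes of low genes. A gene was called at an unadjusted P under 0.05 and an absolute log2 fold change of at least 1, the rule of the study. Named context genes were called ones with a mean of at least 10, at most 4 per list, direction and comparison by size, other names being marked in the text. On simulated data (27037 genes, 200 changed 4-fold, *hTNFtg* versus WT), limma recovered 98.5% of the changed genes by the rule and called 2.4% of the others. The changed genes were drawn only from those above a minimum mean. All genes were given the same fixed spread between libraries beyond counting error. The 98.5% therefore does not measure power for scarce members such as *Fosb*, *Atf3* and *Batf*, or for ones as variable as *Fos*. Reads per library gave exact 95% Poisson intervals, which cover counting error only. Alternatives were pseudocounts of 5 and 0.5, a filter at a mean of 10, median ratio and quantile scaling, array weights, all 9 libraries in one fit, a replicate block, edgeR (4.0.16) on approximate reads, and leaving out each library; counts of the context gene lists under these alternatives were added after seeing the data. Python 3.11.15, GENCODE M21 and RefSeq promoters (GRCm38.p6) were used.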

Additional observations from a re-analysis of the deposited data

How the results depend on the processing

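Over 30 member differences, 390 of 444 alternative values kept the direction and the side of the rule, 7 lost a call, 13 gained one and 34 changed sign, all of the last among differences that were not called. The number of members called in *hTNFtg* versus WT was 1 (*Fos*) and went to 0 with a pseudocount of 5 (*Fos* 1.71), with the filter at a mean of 10 (*Fos* still 2.29, so that only its p-value crossed the threshold) and with array weights (1.35); leaving out libraries gave 0 to 1. For infliximab-treated versus untreated *hTNFtg* it was 0 and became 1 (*Atf3*) with array weights, the replicate block and edgeR; leaving out libraries gave 0 to 1. For infliximab-treated *hTNFtg* versus WT it was 0 and became 1 with edgeR; leaving out libraries gave 0 to 4, the 4 without WT replicate 1. The cause of these moves was not tested.

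The *Batf* values below are fitted values that depend on the pseudocount, since its WT libraries lie at or under 3 reads. Signs changed in *hTNFtg* versus WT for *Atf3* with a pseudocount of 5 (-0.074), quantile scaling (-0.16), array weights (-0.67) and edgeR (-0.55), and with array weights for *Fosb* (0.064) and *Junb* (0.061). With array weights they also changed for *Fos* with infliximab (0.22) and *Batf* in infliximab versus WT (-0.13). On leaving out libraries, the ranges that include a change of sign were, in *hTNFtg* versus WT, -0.47 to 0.14 for *Fosl1*, -0.13 to 0.54 for *Jun*, -0.30 to 0.16 for *Junb*, -0.0093 to 0.65 for *Jund*, -0.65 to 0.80 for *Atf3*, -0.057 to 1.35 for *Batf* and -0.22 to 0.36 for *Egr1*. With infliximab they were -1.41 to 0.042 for *Fos*, -0.45 to 0.16 for *Fosl1*, -0.15 to 0.31 for *Fosl2*, -0.59 to 0.032 for *Jund* and -1.10 to 0.35 for *Batf*. In infliximab versus WT they were -0.14 to 0.30 for *Jund* and -0.28 to 0.90 for *Batf*.

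Over the whole table, genes called in *hTNFtg* versus WT numbered 1823, and 1183 with the filter and 3540 with array weights. With infliximab they numbered 693, and 351 with a pseudocount of 5, 314 with the filter, 2144 with array weights, 1050 with all 9 libraries, 1229 with edgeR and 418 to 1411 on leaving out libraries. Raised genes were 426 of the 693, but 754 of the 2144, 518 of the 1229 and 481 of the 1411 without *hTNFtg* replicate 1. In infliximab versus WT they numbered 1923, and 1058 with a pseudocount of 5 and 1056 with the filter. edgeR called 2410 and 2051 genes in the comparisons with WT.

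Same-numbered libraries were not treated as pairs in the main fits. Their deviations from group means correlated at -0.143 to 0.352, with values at or under 0.1 in every comparison, and not every library correlated best with its own number. Between infliximab and untreated *hTNFtg* libraries, the same-numbered values were 0.0694, 0.188 and 0.255, and those of unlike numbers ran from -0.242 to 0.122. Whether these cultures shared animals is not given, so a pairing there was not settled. With a replicate block the members called were 1, 0 and 1 in *hTNFtg* versus WT, infliximab versus WT and infliximab versus untreated *hTNFtg*, the last being *Atf3*, and 1659, 1698 and 605 genes were called over the table. Depth limits *Fosb*, *Atf3* and *Batf* most, since 1 read in *hTNFtg* replicate 1 is worth 6.23 normalized counts.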
